A study of Mus musculus with 4 samples.

Results

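Imprinted genes are expressed mainly from 1 parental allele. Which allele is silent is set by DNA methylation laid down in the germline at imprinting control regions, either directly or through a noncoding RNA expressed from the unmethylated allele. In the embryo these regions are recognised by zinc finger proteins such as Zfp57, which bring Trim28 and the H3K9 methyltransferase Setdb1 to the methylated allele. Many imprinted genes regulate fetal growth, placental function and cell proliferation, and many are most active before birth. The 37 imprinted genes described here were taken by gene symbol from a fixed list, with no threshold on a measured value. The list was chosen with earlier results of these data known. Of the 37 genes, 34 were represented by at least 1 probe set annotated to that gene alone, among 18193 such genes on the array. H19 had a single probe set, which it shares with Mir675, and Zrsr1 and Slc22a3 had none, so these 3 genes have no value.

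RNA came from thioglycollate-elicited peritoneal macrophages of C57BL6/J mice. The WT group was +/+:Setdb1 fl/fl and the KO group LysM Cre/+:Setdb1 fl/fl, so that both carried the floxed Setdb1 allele and the KO mice alone carried the Cre, which is driven by the lysozyme M gene in myeloid cells. Cells of each genotype received vehicle or lipid A, the active moiety of LPS, for 4 h, and 1 Affymetrix array was run for each of the 4 conditions. The dose of lipid A is given as 10 µg/ml with the samples and as 10 ng/ml with the series. Ages, and whether animals were pooled, are not given in the sources used here. With 1 array a condition no difference has a replicate check, and no p-value was computed. The array measures RNA from both parental alleles together, so a signal carries no information on which allele was active.

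Setdb1, the targeted gene, gave a signal of 589 and 521 in WT (vehicle, then lipid A) and 346 and 386 in KO. It was lower in both KO arrays and not lost from them. Without control probe sets the array medians were 65.1, 74.8, 84.2 and 75.8. Where 4 values are listed, as here, WT comes before KO and vehicle before lipid A. A gene was taken as detected on an array when its brightest probe set reached that median. The cells differed between genotypes in the markers of other cell types. Summed over the 10 B cell genes with a probe set, the signal was 697 and 752 in the WT arrays against 6044 and 6097 in the KO arrays. Macrophage identity genes summed to 192091 and 211486 in WT and to 164490 and 183213 in KO. Fewer cells of a type and less RNA per cell cannot be told apart in such samples.

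Most imprinted genes gave little or no signal in these macrophages. Of the 34 genes, 8 reached the median on all 4 arrays, which is 23.5%, whereas 49.7% of all genes did so. These were Cdkn1c, Plagl1, Gnas, Igf2r, Impact, Copg2, Inpp5f and Airn. A further 16 reached it on 1 to 3 arrays, with signals from 2.41 to 200.7, and 10 reached it on none, with signals from 1.87 to 80.8. The genes below the median on all 4 arrays made up 29.4% of the list and 25.4% of all genes. By role, 3 of 18 paternally expressed protein genes, 3 of 8 maternally expressed protein genes and 1 of 5 long noncoding RNAs were detected on all arrays. The remaining gene, Gnas, is imprinted by isoform and tissue.

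**Figure D1:**
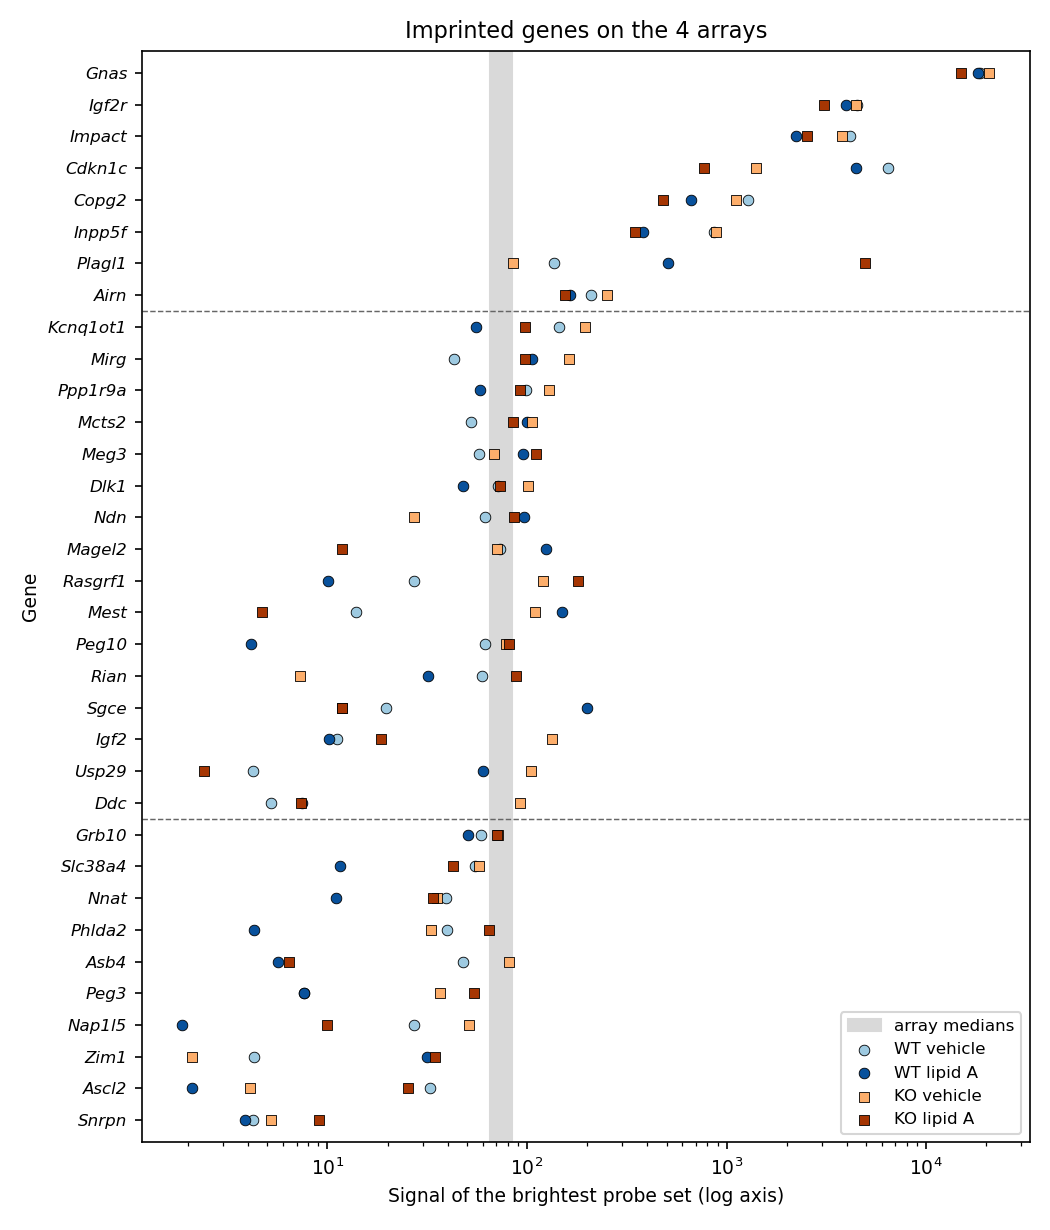
Signal of the brightest probe set of each of the 34 imprinted genes on the 4 arrays, on a log axis, with 1 point per array. The grey band spans the 4 array medians, from 65.1 to 84.2, and dashed lines separate the 8 genes detected on all arrays, the 16 detected on some and the 10 detected on none. Most genes lie in or to the left of the band.

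Among the detected genes, Cdkn1c was lower in KO with either treatment. Cdkn1c encodes p57Kip2, a cyclin-dependent kinase inhibitor expressed from the maternal allele. Its only probe set gave 6422 and 4425 in WT (vehicle, then lipid A) and 1399 and 772 in KO. Both WT signals were above both KO signals, and the signal with lipid A was below that with vehicle in each genotype. The KO signal was 4.59-fold lower than WT under vehicle and 5.73-fold lower under lipid A, or -2.20 and -2.52 on the log2 scale. Counted from the lowest difference, Cdkn1c ranked 31 of the 9872 genes detected on both vehicle arrays and 12 of the 9685 detected on both lipid A arrays. Over 4-fold lower signals in KO under both treatments were found for 12 of 9047 genes detected on all 4 arrays, or 0.133%.

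The spread between probe sets of the same gene gives a technical yardstick for such differences, although it is no replicate error. Where a gene had several detected probe sets, their log2 differences between KO and WT had an SD of 0.42 under vehicle (4413 genes) and 0.41 under lipid A (4260 genes). Cdkn1c has 1 probe set on this array, so its own difference could not be compared between probe sets. The other inhibitors of its family, named here after their values were seen, had different values. Cdkn1a (p21) gave 1719 and 11623 in WT (vehicle, then lipid A) and 3454 and 20076 in KO. Cdkn1b (p27) gave 1283, 760, 966 and 666 in the same order. Cdkn1a was thus 2.01-fold and 1.73-fold higher in KO, and Cdkn1b 1.33-fold and 1.14-fold lower.

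The summed signals of connective tissue and neutrophil markers were lower in KO, as Cdkn1c was, while single markers went in both directions. The summed signal of 18 fibroblast and mesothelium genes was 3061 and 3020 in the WT arrays and 2130 and 2283 in the KO arrays. Of the 14 of them detected in each comparison, 4 were over 2-fold lower and 3 higher in KO under vehicle, and 7 were lower and 1 higher under lipid A. Among all detected genes, 6.17% were lower and 11.1% higher under vehicle, and 10.3% and 10.6% under lipid A. Col1a2, a fibrillar collagen, gave 496, 399, 256 and 167, while the mesothelial markers Upk3b, Krt19 and Wt1 were below the median on all arrays. The 9 neutrophil genes summed to 5546 and 4363 in WT and to 1438 and 1145 in KO. Of 6 detected under vehicle, 3 were over 2-fold lower and 2 higher in KO. Under lipid A, 2 of 4 were lower and 0 higher. The part of connective tissue cells and neutrophils in the Cdkn1c signal was not tested.

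Cdkn1c lies in a domain of chromosome 7 that also holds Igf2, H19, Ascl2, Kcnq1ot1 and Phlda2. Kcnq1ot1 is the paternally expressed noncoding RNA that silences Cdkn1c on the same chromosome. The brightest of its 6 probe sets gave 145 and 55.3 in WT (vehicle, then lipid A) and 195 and 97.7 in KO. It was 1.35-fold higher in KO under vehicle and at least 1.31-fold higher under lipid A, whereas the next probe sets gave 113, 3.58, 102 and 70.9, and 97.3, 108, 65.2 and 59.7. The probe sets therefore gave no common direction. Phlda2 and Ascl2, maternally expressed genes of placental growth, were below the median on all 4 arrays.

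Neighbours of Cdkn1c were examined from the further lists of imprinted and adjacent genes. In the interval from H19 to Tnfrsf23 in the RefSeq gene order, 16 such genes had a probe set and 7 were detected on all arrays. Cd81, a tetraspanin of many leukocytes including B cells, gave 555, 376, 1163 and 1292, and so was higher in KO by 1.07 and 1.78 on the log2 scale. Tnfrsf22, a decoy receptor of the TNF receptor family, gave 74.1, 127, 254 and 187, and was higher in KO by 1.77 and 0.56. Nap1l4, a histone chaperone, gave 1749, 1797, 2027 and 1750, and Cars, the cysteinyl tRNA synthetase, gave 1139, 1331, 1076 and 1293. Nap1l4 and Cars differed by at most 0.21 on the log2 scale between genotypes. Of the 7 genes, Cdkn1c had the single difference below -1 in either comparison. Whether B cell RNA contributed to the Cd81 signal was not tested, and the summed B cell signal moved with it.

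Plagl1 stood out with lipid A in KO, on 1 probe set. Plagl1 (Zac1) is a paternally expressed zinc finger transcription factor that restrains proliferation. Its brightest probe set, 1426208_x_at, gave 136 and 507 in WT (vehicle, then lipid A) and 85.3 and 4948 in KO. The signal was 1.60-fold lower in KO than in WT under vehicle and 9.77-fold higher under lipid A. With lipid A it was 3.72-fold higher than with vehicle in WT and 58.0-fold higher in KO. The KO vehicle signal of 85.3 was barely above the median of that array, 84.2. The 1.60-fold and 58.0-fold values therefore rest on a signal near the background. The other probe sets of the gene did not follow. In the same order of arrays, 1438588_at gave 9.08, 89.0, 78.8 and 66.8, and 1450533_a_at did not exceed 12.4. In KO lipid A both were below the array median of 75.8. The suffix _x_at marks a probe set whose probes may also match other transcripts, and the array does not tell which transcript gave the signal. A value for Plagl1 that all its probe sets share cannot be given.

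**Figure D2:**
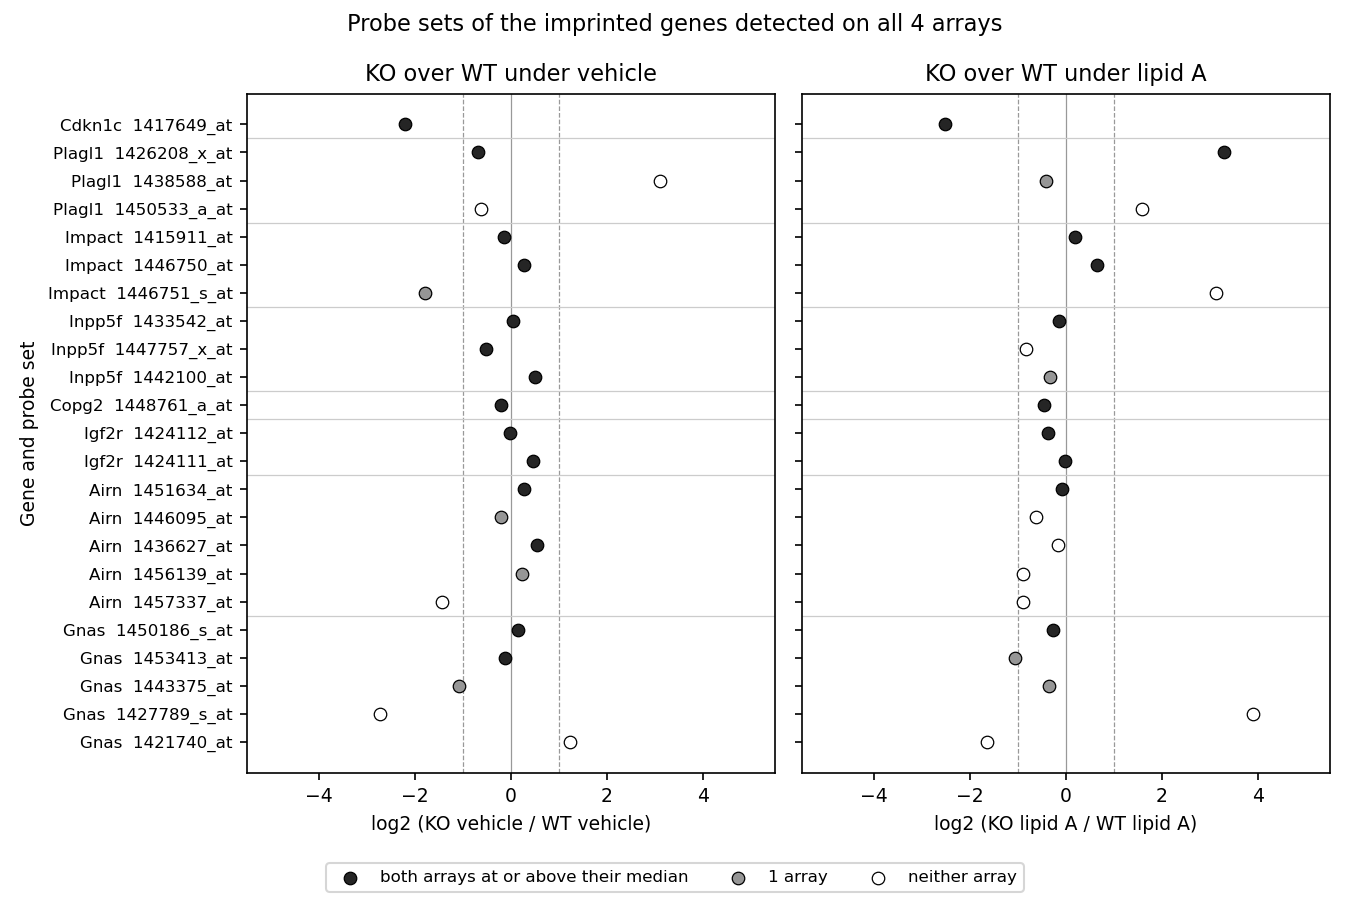
Log2 difference between KO and WT of every probe set of the 8 imprinted genes detected on all arrays, under vehicle (left) and lipid A (right). Black points have both arrays at or above their median, grey points 1 array, and open points neither, and dashed lines mark 2-fold. Cdkn1c lies at -2.20 and -2.52 on its single probe set, and the 3 probe sets of Plagl1 under lipid A lie at 3.29, -0.41 and 1.59.

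The promoter of Plagl1 is shown because it holds the letters TGCCGC, the core of the methylated sequence that Zfp57 binds, which was searched on both strands (GCGGCA on the other strand). The sequence is from RefSeq on GRCm38.p6 and covers 250 bases before to 50 bases after the start of the transcript, with the match in capitals. It is chr10:13090582-13090881, plus strand.

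Plagl1: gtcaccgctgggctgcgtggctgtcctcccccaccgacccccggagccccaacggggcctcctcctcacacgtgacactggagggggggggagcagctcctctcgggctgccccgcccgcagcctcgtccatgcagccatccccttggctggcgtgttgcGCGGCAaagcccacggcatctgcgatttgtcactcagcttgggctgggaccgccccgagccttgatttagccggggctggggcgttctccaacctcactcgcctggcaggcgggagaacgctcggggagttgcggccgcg

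The match was found in 12 of 50 promoters of the imprinted genes (24.0%) and in 11.6% of all promoters in that table. By gene this was 11 of 32 imprinted genes with a promoter in the table, or 34.4%, against 13.1% of all genes. The promoters of the imprinted genes were also richer in CpG, with a median of 10.5 CpG against 7 and a median GC content of 56.5% against 52.7%, so that the 2 shares do not come from promoters of equal composition. A match is a run of letters and was not examined for methylation or binding.

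The other 6 detected genes were within 1.37-fold between KO and WT under either treatment on their brightest probe sets. Gnas encodes the stimulatory G protein alpha subunit that couples receptors to adenylyl cyclase, and gave 18610, 18133, 20722 and 14969. Igf2r, the maternally expressed mannose 6-phosphate receptor that sorts lysosomal enzymes and clears Igf2, gave 4511, 3966, 4463 and 3073. The second probe set of Igf2r gave 2507, 2688, 3436 and 2644. Impact, a paternally expressed inhibitor of the amino acid sensor Gcn2, gave 4165, 2215, 3765 and 2529. A second probe set of Impact, also detected on all 4 arrays, gave 255, 183, 306 and 286. It was 1.20-fold higher in KO under vehicle and 1.56-fold higher under lipid A. The differences of Gnas, Igf2r and Impact between genotypes were from 1.01-fold to 1.29-fold on the brightest probe sets. Under vehicle Gnas differed by 0.16 on the log2 scale as deposited and by -0.22 after each array was centred on its median, so its direction was not settled. Igf2r likewise differed by -0.02 as deposited and 0.03 after quantile normalization.

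Airn is the paternally expressed noncoding RNA that overlaps Igf2r in antisense and silences it. Its brightest probe set gave 208 and 164 in WT (vehicle, then lipid A) and 251 and 155 in KO. The KO signal was 1.20-fold higher under vehicle, or 0.27 on the log2 scale, which became -0.10 after centring, and 1.05-fold lower under lipid A. The next of its 5 probe sets were close to or below the median on every array, the highest value among them being 115. The pair of Airn and Igf2r thus showed no difference over 2-fold between genotypes on their brightest probe sets. Copg2, a subunit of the COPI vesicle coat, and Inpp5f, an inositol phosphatase of endosomes, were also within 1.37-fold and are described with lipid A.

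**Figure D3:**
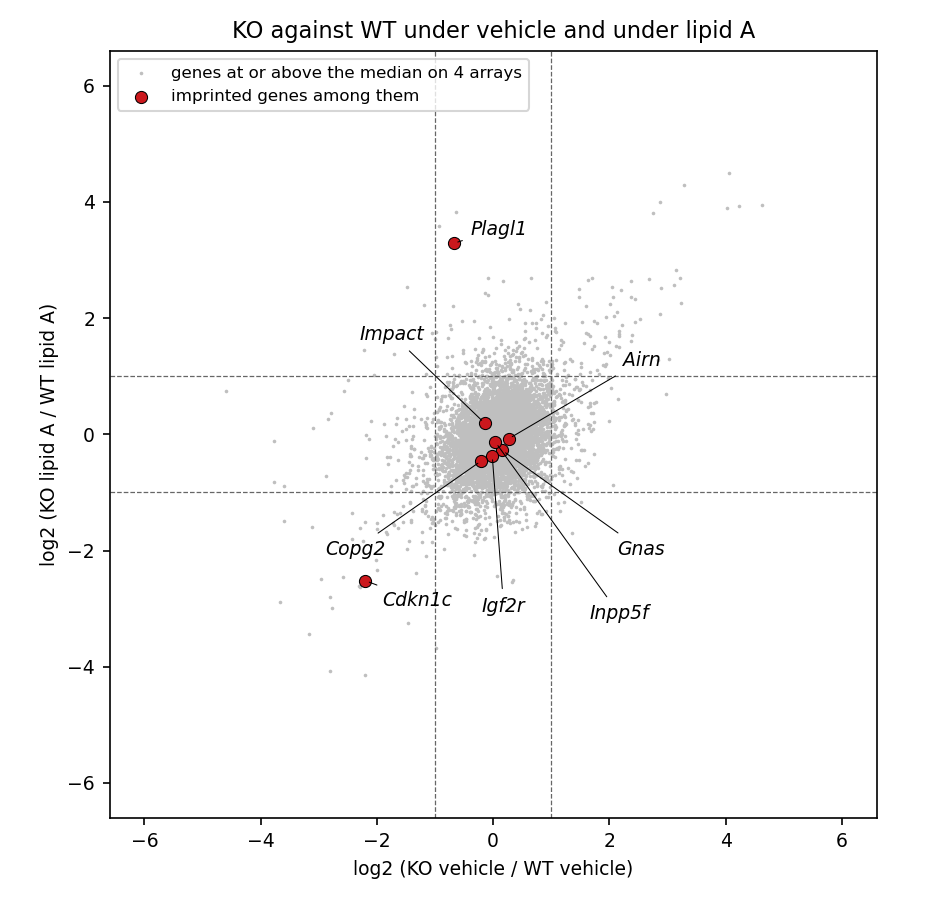
Log2 difference between KO and WT under vehicle (horizontal) and under lipid A (vertical). Grey points are the 9047 genes detected on all 4 arrays, red points the 8 imprinted genes among them, and dashed lines mark 2-fold. Cdkn1c is at -2.20 and -2.52, Plagl1 at -0.68 and 3.29, and the other 6 lie inside the 2-fold lines.

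With lipid A the signals of 7 of the 8 detected genes were lower than with vehicle in both genotypes, from 1.03-fold to 2.56-fold, Plagl1 being the exception. This holds for the brightest probe sets, and the second probe set of Igf2r, at 2507 and 2688, was not lower in WT. Over all genes detected on both arrays of a genotype, the median log2 difference was itself negative, at -0.09 in WT and -0.19 in KO. Gnas in WT, at -0.04, was above that median. The share of all genes that were lower in both genotypes by any amount was not counted, so 7 of 8 has no background beside it. Inpp5f gave 863 and 381 in WT (vehicle, then lipid A) and 887 and 346 in KO, which was 2.27-fold lower in WT and 2.56-fold lower in KO. A second probe set gave 289, 72.9, 201 and 41.0, again lower with lipid A in each genotype. The third, near the median, gave 83.5, 84.2, 118 and 66.8, and was not lower in WT. Copg2, with 1 probe set, gave 1282, 660, 1112 and 480, which was 1.94-fold lower in WT and 2.32-fold lower in KO. Impact was 1.88-fold and 1.49-fold lower on its brightest probe set, and 1.39-fold and 1.07-fold lower on the second.

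Counted from the lowest difference, Inpp5f ranked 215 of the 9785 genes detected on both WT arrays and 443 of the 9745 detected on both KO arrays. Copg2 ranked 428 and 627. A signal over 1.5-fold lower with lipid A in both genotypes was found for 852 of the 9047 genes detected on all arrays, or 9.42%. Airn was 1.27-fold and 1.62-fold lower, Igf2r 1.14-fold and 1.45-fold, and Gnas 1.03-fold and 1.38-fold. Between probe sets of a gene the SD of the log2 difference with lipid A was 0.39 for WT and 0.46 for KO. In WT, the log2 differences of Gnas (-0.04), Igf2r (-0.19) and Airn (-0.35) were smaller than that SD. In KO they were -0.47, -0.54 and -0.69 as deposited, each larger in size than the SD for KO. For Gnas and Igf2r this depended on the scaling. After centring they were at -0.32 and -0.39, within that SD, and after quantile normalization both were at -0.59, beyond it. The second probe set of Igf2r was within it, at -0.38 as deposited. Airn was beyond it with either scaling, at -0.54 and -0.56.

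**Figure D4:**
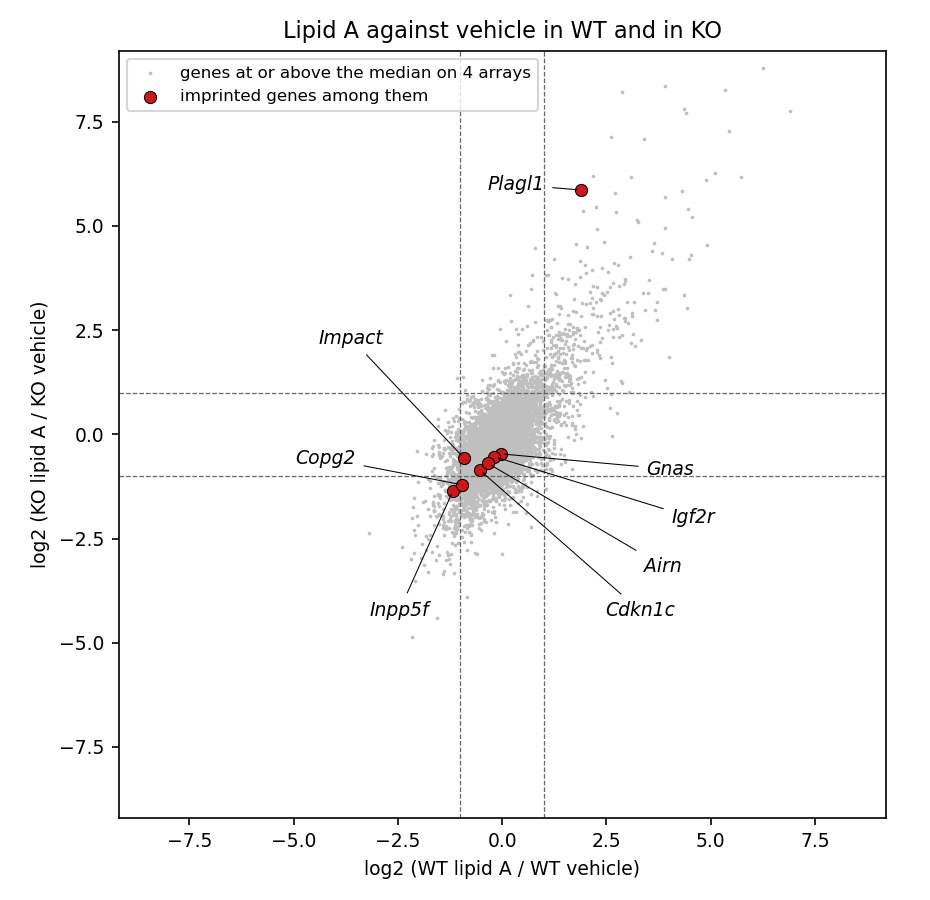
Log2 difference between lipid A and vehicle in WT (horizontal) and in KO (vertical). Grey points are the 9047 genes detected on all 4 arrays, red points the 8 imprinted genes among them, and dashed lines mark 2-fold. Plagl1 is at 1.89 and 5.86, Inpp5f at -1.18 and -1.36, and the other 6 are at or below 0 on both axes.

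The promoters of Inpp5f and Copg2 are shown because their signals with lipid A were the furthest below those with vehicle, in each genotype, among the 8 detected genes. They are from RefSeq on GRCm38.p6, chr7:128611115-128611414 on the plus strand for Inpp5f and chr6:30896745-30897044 on the minus strand for Copg2, each written in the direction of transcription. The capitals in Copg2 mark the same match as above on the other strand, and Inpp5f holds none.

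Inpp5f: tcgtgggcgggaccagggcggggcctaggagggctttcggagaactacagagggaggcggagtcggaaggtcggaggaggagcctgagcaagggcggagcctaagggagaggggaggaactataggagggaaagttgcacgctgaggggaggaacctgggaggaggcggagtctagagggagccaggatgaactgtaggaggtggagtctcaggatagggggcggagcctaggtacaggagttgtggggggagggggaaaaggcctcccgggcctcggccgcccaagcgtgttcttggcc
Copg2: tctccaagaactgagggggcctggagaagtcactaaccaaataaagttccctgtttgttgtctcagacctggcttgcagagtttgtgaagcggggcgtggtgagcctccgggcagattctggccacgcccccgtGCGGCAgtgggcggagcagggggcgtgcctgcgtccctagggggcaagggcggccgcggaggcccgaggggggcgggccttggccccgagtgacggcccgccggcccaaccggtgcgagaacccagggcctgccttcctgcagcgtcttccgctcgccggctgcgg

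Both windows are rich in CpG, with 15 CpG in Inpp5f and 25 in Copg2, against a median of 7 over all promoters. Mest, which shares its domain with Copg2, was at the level of background on some arrays and is given with the weakly detected genes.

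Of the 16 genes detected on some arrays, each had at least 1 signal below the median, and a difference against such a signal is given as a lower bound. Mest, a paternally expressed gene of the alpha/beta hydrolase family, gave 13.9 and 150 in WT (vehicle, then lipid A) and 110 and 4.68 in KO. It was at least 1.68-fold higher in KO under vehicle and at least 1.98-fold lower under lipid A. Rasgrf1, a Ras exchange factor, gave 27.1, 10.1, 121 and 181, and was at least 1.85-fold and at least 2.42-fold higher in KO. Of the 3 probe sets of Rasgrf1 the others stayed below the median on every array. Igf2, the fetal growth factor, gave 11.2, 10.2, 133 and 18.6, and was at least 2.04-fold higher in KO under vehicle. Its other probe set, below the median on every array, went the other way, at 47.2, 57.9, 2.51 and 3.05.

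The genes of the Dlk1 domain were near the median. Meg3, a maternally expressed noncoding RNA, gave 57.4, 95.8, 68.4 and 111, and Mirg, a noncoding host of microRNAs, gave 43.1, 106, 162 and 97.4. Rian, the small nucleolar RNA host of this domain, gave 59.5, 31.8, 7.32 and 88.4. Dlk1, a transmembrane inhibitor of adipocyte differentiation, gave 71.2, 47.6, 101 and 73.5. Their highest signal was 162, and on each array at least 1 of the 4 was below the median. These values are of the brightest probe sets. Meg3 has 11 probe sets, which gave no common direction between KO and WT. Its probe set 1428764_at gave 100, 107, 12.5 and 7.66, lower in KO with either treatment.

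Sgce, a sarcoglycan, gave 19.6, 201, 11.8 and 11.8, and was at least 2.65-fold lower in KO under lipid A. Its neighbour Peg10, a retrotransposon-derived gene of placenta, gave 61.7, 4.14, 78.2 and 80.9, and Ppp1r9a, which binds actin and protein phosphatase, gave 98.9, 57.8, 128 and 91.7. Sgce was high on the WT lipid A array alone, whereas Ppp1r9a was below the median on that array alone. Ppp1r9a has 5 probe sets, of which 1456072_at also reached the median, in KO vehicle alone (114). Magel2 and Ndn, paternally expressed genes of the MAGE family, gave 72.9, 125, 70.3 and 11.9, and 61.2, 96.7, 27.2 and 85.7. Both were highest in WT lipid A on these probe sets. Ndn has 8 probe sets, which gave no common pattern. The others that reached the median did so in WT vehicle alone (103) or in KO vehicle alone (101 and 99.4).

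The last 3 genes of this kind were Mcts2, Usp29 and Ddc. Mcts2, a retrocopy of Mcts1, gave 52.5, 100.5, 106 and 84.7. Usp29, a ubiquitin peptidase gene next to Peg3, gave 4.22, 59.8, 105 and 2.41. Ddc, the aromatic amino acid decarboxylase, gave 5.24, 7.42, 91.7 and 7.36. Usp29 and Ddc were above the median in KO vehicle alone, as was Igf2. By their brightest probe sets, the 10 genes below the median on all arrays were Peg3, Snrpn, Nap1l5, Grb10, Nnat, Phlda2, Ascl2, Zim1, Asb4 and Slc38a4. For Snrpn this holds for the single probe set that carries no second symbol. Dimmer probe sets reached the median on 1 array each for Peg3 (81.0 in KO lipid A), Asb4 (100.8 in KO vehicle) and Grb10 (114 in KO lipid A, and 76.7 in WT vehicle on another probe set).

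Counts of imprinted genes past 2-fold depended on how weak signals were treated. When both arrays had to reach their median, 0 of 11 genes were over 2-fold higher in KO under vehicle and 1, Cdkn1c, was lower, whereas 3.48% and 2.08% of all such genes were. Under lipid A, 1 of 12 was higher (Plagl1) and 1 lower (Cdkn1c), against 3.60% and 3.77%. Lipid A in WT gave 1 higher (Plagl1) and 1 lower (Inpp5f) of 9, against 5.28% and 3.88%. Lipid A in KO gave 1 higher (Plagl1) and 2 lower (Inpp5f and Copg2) of 13, against 5.82% and 10.0%. Each of these counts is of 0, 1 or 2 genes.

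When the brighter array alone had to reach its median, more genes were counted, since a gene that passes in this way has its lower value in the background. Under vehicle 7 of 19 genes were higher in KO and 1 lower, with 11.1% and 6.17% of all genes. Under lipid A 4 of 20 were higher and 4 lower, with 10.6% and 10.3%. Lipid A in WT gave 4 higher and 2 lower of 18, with 11.8% and 8.94%, and lipid A in KO gave 3 higher and 6 lower of 22, with 11.2% and 16.0%. The median log2 difference of the imprinted genes was 0.38 for KO over WT under vehicle and -0.13 under lipid A, beside 0.10 and -0.01 over all detected genes. For lipid A it was -0.11 in WT and -0.56 in KO, beside -0.08 and -0.20. With both arrays required to reach their median, it was 0.04, -0.16, -0.35 and -0.57 in the same order of comparisons. Over all such genes the median was 0.09, -0.01, -0.09 and -0.19. The 0.38 under vehicle thus rests on genes whose signal was in the background on 1 array. Comparisons that share an array are not independent of each other.

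The scaling of the arrays also entered these shares. Centring each array on its median lowered every log2 difference between KO and WT under vehicle by 0.37, since the KO vehicle array had the highest median. Of all genes past 2-fold in that comparison, 64.3% were higher in KO as deposited, 42.1% after centring and 52.5% after quantile normalization. For lipid A in WT the share was 56.9% as deposited and 44.3% after centring. Cdkn1c was lower in KO with each scaling, at -2.57 and -2.54 after centring and -2.21 and -2.44 after quantile normalization.

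The proteins that establish or maintain imprints were mostly detected. Of 32 with a probe set, 28 were detected under vehicle, of which 3 were over 2-fold higher and 1 lower in KO, and 29 under lipid A, with 4 higher and 2 lower. All detected genes had 11.1% higher and 6.17% lower under vehicle, and 10.6% higher and 10.3% lower under lipid A, so that the counts of this list were near those of all genes. Trim28, the corepressor that recruits Setdb1, gave 3070, 2694, 3484 and 2567, and Dnmt1, the maintenance DNA methyltransferase, gave 2146, 980, 2861 and 690. Zfp57 was below the median on all arrays, whereas Zfp445, a zinc finger protein that acts at imprints beside it, gave 2592, 1960, 2238 and 2133. Atf7ip, the partner that stabilises Setdb1, gave 1086, 559, 2205 and 1233 and was higher in both KO arrays. Dnmt3a, the de novo methyltransferase, gave 13896, 6573, 10005 and 2342. Both Dnmt1 and Dnmt3a were over 2-fold lower with lipid A in each genotype.

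A second list, of 41 further imprinted genes with a probe set, had 4 genes over 2-fold higher and 5 lower of 29 detected in KO under vehicle, and 3 higher and 8 lower of 30 under lipid A, beside 11.1% and 6.17%, and 10.6% and 10.3%, of all detected genes. Its median log2 difference was 0.18 and -0.21. Dcn, a proteoglycan of connective tissue that is also a fibroblast marker here, gave 553, 496, 138 and 172, and was lower in both KO arrays. Ampd3, an AMP deaminase, gave 7787, 13409, 3016 and 11278. Atp10a, a phospholipid flippase, gave 174, 466, 183 and 968, and was over 2-fold higher with lipid A in each genotype. Hosts, neighbours and parent genes, 31 with a probe set, had 3 higher and none lower of 24 in KO under vehicle, and 3 higher and 1 lower of 26 under lipid A, beside the same shares. Lsp1, a leukocyte actin-binding protein encoded near Igf2, gave 302, 198, 708 and 750.

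Germline genes that DNA methylation silences in adult tissues were mostly at background. Of 17 with a probe set, 10 were below the median on all arrays. In KO under vehicle 2 of 6 detected genes were higher (Dazl and Sycp3) and 1 lower (Brdt), and under lipid A 1 of 5 was higher (Dpep3). Of all detected genes, 11.1% were higher and 6.17% lower under vehicle, and 10.6% were higher under lipid A. Dazl, an RNA-binding protein of germ cells, gave 50.6, 8.82, 141 and 40.4, so that its difference rests on a signal below the median in WT.

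The marker lists of the cell types were counted in the same way, beside shares over all detected genes of 11.1% higher and 6.17% lower under vehicle and of 10.6% and 10.3% under lipid A. Of the 8 B cell genes detected in each comparison, 7 were higher and 0 lower in KO under vehicle, and 5 higher and 1 lower under lipid A. Genes of resident large peritoneal macrophages had 5 higher and 1 lower of 8 under vehicle, and 7 higher and 0 lower of 8 under lipid A. T and NK cell genes had 3 of 3 higher under vehicle and 3 of 7 under lipid A, with 0 lower. In WT vehicle 0 of the 8 T and NK cell genes with a probe set reached the median, against 3 in KO vehicle. Those 3 were thus counted through the KO array alone and could only come out higher. Neutrophil genes had 2 higher and 3 lower of 6 under vehicle, and 0 higher and 2 lower of 4 under lipid A. Macrophage identity genes had 1 higher and 1 lower of 11 under vehicle, and 1 higher and 0 lower of 11 under lipid A. Csf1r, the receptor for macrophage colony-stimulating factor, gave 39295, 40196, 34472 and 25476. The part of these cell types in the signals of the imprinted genes was not tested.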

How the data were processed

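RNA of thioglycollate-elicited peritoneal macrophages was measured on 4 arrays, 1 per condition. The authors deposited 1 table of probe set intensity, as a linear signal, which a program not given in the sources used here computed. All 4 arrays have the same mean, 500.004, once 2% is trimmed from either end, from which a scaling of whole arrays was inferred. Nothing further was normalized. Array number limits the precision. Of 45101 probe sets, 64 controls were left out. In the platform annotation 34945 of the others have 1 gene symbol, 932 several and 9160 none, and only the first were named.

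For each gene the brightest probe set was used, by its log2 signal averaged over the arrays. A gene was counted in a comparison when its brighter signal reached the median of that array, and called when the difference was over 2-fold. A fold is measured when both signals reach their medians, and "at least" is set against the median of the array that holds the lower signal. No p-value was computed. The counting was tested on simulated data in which only genes well above the array medians were changed. That test does not cover genes near the median. Python 3.11.15, numpy 2.4.6, pandas 2.3.3 and matplotlib 3.10.9 were used.

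The genes named were every imprinted gene that reached the median on at least 1 array, up to 4 genes of each other list with the largest genotype differences among genes detected on both arrays, and defining genes of the lists. Other genes from those lists, Cdkn1a and Cdkn1b were named after their values were seen. The imprinted genes and the 10 further lists were chosen with earlier results of these data known. The lists were imprint control proteins, further imprinted genes, hosts, neighbours and parent genes, germline genes, and markers of macrophages, resident large peritoneal macrophages, B cells, T and NK cells, neutrophils, and fibroblasts and mesothelium. Alternatives were centring on the median, quantile normalization, other filters on weak signals, a median over probe sets, and folds of 1.5 and 3.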

Additional observations from a re-analysis of the deposited data

Results flagged for a closer look

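Mest differed in direction between the comparisons. Its signal was higher in KO under vehicle and lower in KO under lipid A. The log2 difference between lipid A and vehicle was 3.42 in WT and -4.55 in KO, and these differ by -7.97. With 1 array a condition the difference was not tested. Of its 4 signals, 13.9 in WT vehicle and 4.68 in KO lipid A were below the array median, so the sizes rest on background values, and Mest has 1 probe set.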

How the results depend on the processing

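Cdkn1c was over 2-fold lower in KO under both treatments after centring and after quantile normalization. Its 1 probe set was above the median on all 4 arrays, so the other alternatives could not change its value. The counts of imprinted genes past 2-fold, given here as higher and lower, moved with several alternatives. With both arrays required to reach their median, they were 0 higher for KO over WT under vehicle, 1 and 1 under lipid A, 1 and 1 for lipid A in WT, and 1 and 2 for lipid A in KO. With signals below the median raised to it, they were 2 higher under vehicle, 2 and 2 under lipid A, 1 lower in WT, and 1 and 2 in KO. With no filter, they were 5 lower under vehicle, 11 higher under lipid A, 10 lower in WT and 5 higher in KO. With arrays centred on their medians, 2 (Cdkn1c and Plagl1) were lower in KO under vehicle and 4 lower with lipid A in WT. With the median over all probe sets, the counts were 4 and 2 under vehicle, 2 higher under lipid A, 2 higher in WT and 0 higher in KO. Over 3-fold, 0 were lower in WT. Over 1.5-fold, 2 were lower under vehicle, 8 higher and 5 lower in WT, and 10 lower in KO. Without probe sets ending in _x_at or _s_at, an alternative chosen after seeing the data, 2 were higher in KO under lipid A and 1 higher with lipid A in KO.

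Plagl1 turned to -0.41 (KO over WT under lipid A, log2) and -0.24 (lipid A in KO) with the median over probe sets and without those suffixes. The median of the list turned to 0.20 for KO over WT under lipid A with no filter, and to 0.017 for lipid A in WT with raised signals. The cause was not tested. Of the other values, 41 counts stayed within 1.5 times, and 26 medians and 140 differences of single genes moved by less than the SD between probe sets of a gene, while 16 differences moved by more. That SD is of single probe sets and is a wide yardstick for a median over many genes. The median for KO over WT under vehicle, 0.38 as deposited, was 0.006 after centring and 0.04 with both arrays required. It stayed at 0.38 with raised signals. Small differences within that SD changed sign, among them Gnas (-0.22), Inpp5f (-0.33) and Airn (-0.10) for KO over WT under vehicle after centring. No paired analysis was possible because each condition has 1 array. Allele of origin, replicate error and cell makeup are not measured by these arrays.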
